A study of Mus musculus with 4 samples.

Results

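The nuclear genes for subunits of the mitochondrial respiratory chain and ATP synthase were examined in E14 cells, a line of mouse embryonic stem cells (ESCs), with and without knockdown of Ythdf2. The genes were chosen by name alone: every row of the count table that starts with Nduf, Uqcr, Cox4 to Cox8 or Atp5, and the 4 rows Sdha to Sdhd, without Ndufa4l2 and without rows whose name ends in -ps and a number. This gave 105 of 49997 rows. They comprise 44 rows of complex I, 4 of complex II, 8 of complex III, 21 of complex IV (with Ndufa4, which is now known as a complex IV subunit), 20 of complex V and 8 assembly factors of complex I, the Ndufaf genes. The name rule kept 7 pseudogene rows and left out 10 rows, and 100 of the 105 rows had enough reads to be tested.

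Both groups were stable E14 lines infected with a lentivirus that expresses a short hairpin RNA (shRNA) and kept under puromycin, in medium with serum replacement and leukemia inhibitory factor. The paper describes the ESCs of its knockdown lines as carrying a tdTomato reporter under the promoter of the endogenous retrovirus MERVL. The library titles do not mention this reporter. The shScramble group carried a scrambled hairpin and the shYthdf2 group carried hairpin RNA against Ythdf2. The study's methods list 2 hairpins against Ythdf2, and the library titles do not say which was used. The product of Ythdf2 is a cytoplasmic reader of N6-methyladenosine (m6A) that promotes decay of marked mRNAs. Each group had 2 libraries of poly(A) RNA, which the study's methods call independent biological replicates. Whether they came from separate infections is not given in the sources used here, so the p-values measure the spread between these libraries. The libraries held 31113006 to 36422510 counted reads. Ythdf2 stood at 93.4 and 87.5 CPM (counts scaled by TMM to a common library total) in shScramble and at 31.7 and 30.2 in shYthdf2 (log2 fold change -1.55, edgeR adjusted p = 0.00069). All 8 markers of pluripotent cells were detected, with a summed level of 6080 to 6300 CPM in shScramble and 5420 to 5940 in shYthdf2. The 5 markers of 2-cell-like cells summed to 25.8 and 38.6 CPM in shScramble and to 52.4 and 149 in shYthdf2 replicates 1 and 2. Every marker of primitive endoderm (5 genes), trophoblast (4), fibroblasts (5) and muscle (5) had reads in at least 1 library, though some had few. Ckm, for example, had 12 reads in shYthdf2 replicate 1 and none in the other libraries. Each list summed to between 2.54 and 17.9 CPM in every library.

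One library stood apart for the respiratory chain genes. In shYthdf2 replicate 1 these genes lay above the shScramble mean by a median of 0.19 on the scale of log2(CPM + 0.5), whereas in shYthdf2 replicate 2 the median deviation was 0. Medians and sums over a complex or gene list are therefore also given without replicate 1, except those by gene length, and single genes are given in each library. Values for 4 libraries are given in the order shScramble replicates 1 and 2, then shYthdf2 replicates 1 and 2.

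The respiratory chain passes electrons from NADH (complex I) and succinate (complex II) through ubiquinone to complex III, cytochrome c and complex IV, where oxygen is reduced. Complexes I, III and IV pump protons across the inner mitochondrial membrane, and complex V, the ATP synthase, uses the return of those protons to make ATP. A small set of subunits is encoded by the mitochondrial genome and all others by the nucleus, so that the 2 genomes have to be expressed together. Nuclear genes of this system are known targets of the transcription factors NRF1, GABP (an ETS factor) and YY1. ESCs in culture make much of their ATP by glycolysis but keep a working respiratory chain.

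The promoters of these genes are shown first, since shared promoter motifs are a feature that the name rule did not use. RefSeq promoter windows (GRCm38.p6, 250 bases before to 50 bases after the annotated start) matched 78 of the rows that are not pseudogenes. Each window was searched on both strands for 3 motifs: the 8-base core GCATGCGC of the NRF1 motif, the 7-base ETS core CCGGAAG and the 8-base YY1 motif ATGGCGGC. A gene with several windows was counted once. The NRF1 core was found for 12 genes (15.4%), compared with 5.27% of the 13085 tested genes with a window. The ETS core was found for 19 genes (24.4%) compared with 17.4%, and the YY1 motif for 7 genes (8.97%) compared with 4.71%. At least 1 of the 3 motifs was found for 41.0% of the respiratory chain genes and for 24.9% of all genes tested. Among the complexes, 6 of the 7 genes with a YY1 match were among the 34 of complex I, and none were in complexes II to V. The YY1 matches of Ndufa9, Ndufb5, Ndufs4, Ndufs6, Ndufs7 and Ndufaf8 begin after the annotated start, and those of Ndufa7 before it. One upstream window of 30 bases is printed for each of 7 genes of different complexes whose values are given below, on the strand of the gene, with the motif in capitals (GCATGCGC, or CCGGAAG and its reverse complement CTTCCGG).
Ndufa11 (complex I), chr17:56717693-56717722, plus strand: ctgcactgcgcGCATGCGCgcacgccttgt
Sdhb (complex II), chr4:140961206-140961235, plus strand: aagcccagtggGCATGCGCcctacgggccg
Uqcr11 (complex III), chr10:80406869-80406898, minus strand: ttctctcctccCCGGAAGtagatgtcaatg
Cox6a1 (complex IV), chr5:115349100-115349129, minus strand: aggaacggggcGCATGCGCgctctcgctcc
Cox6b1 (complex IV), chr7:30626124-30626153, minus strand: tcctctcgcagCTTCCGGccagtcggaatt
Atp5e (complex V), chr2:174464185-174464214, minus strand: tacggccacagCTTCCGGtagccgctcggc
Atp5g2 (complex V), chr15:102671069-102671098, minus strand: gctccggccgcGCATGCGCagagccttccc
The motifs of Ndufa11, Sdhb and Atp5g2 begin at -58, -54 and -40 relative to the annotated start. These matches are a description of the sequence. The window of Ndufa13, described next, held none of the 3 motifs.

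To learn how the respiratory chain genes behaved after Ythdf2 knockdown, each row was read from one edgeR quasi-likelihood fit over all 18341 genes that passed the filter on low counts, with p-values adjusted over all of them. Only 1 of the 100 tested members passed an adjusted p of 0.05, the complex I subunit gene Ndufa13, which rose. None fell. Across all genes tested, 3.91% passed, 2.43% as higher in shYthdf2 and 1.49% as lower. Before adjustment, 11 members had a p under 0.05 as higher and 1 as lower, beside 11.0% and 9.80% of all genes. Most members shifted little, and upward. Their median log2 fold change was 0.09 (0 over all genes tested), and 80 of 100 lay above 0 (50.2% of all genes tested). The 95% interval of the fold change lay within 1.5-fold in both directions for 79 members, compared with 35.9% of all genes, and the members were also more abundant, with a median of 62.3 CPM compared with 11.7. The groups did not overlap in 37 members with both shYthdf2 libraries above both shScramble libraries and in 5 with both below them, compared with 51.8% of all genes tested (26.2% above and 25.5% below). Without shYthdf2 replicate 1 the median of the members was 0 and 48 of 100 lay above 0, and without shYthdf2 replicate 2 these values were 0.19 and 93. With a correction for gene length they were 0.04 and 70.

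**Figure D1:**
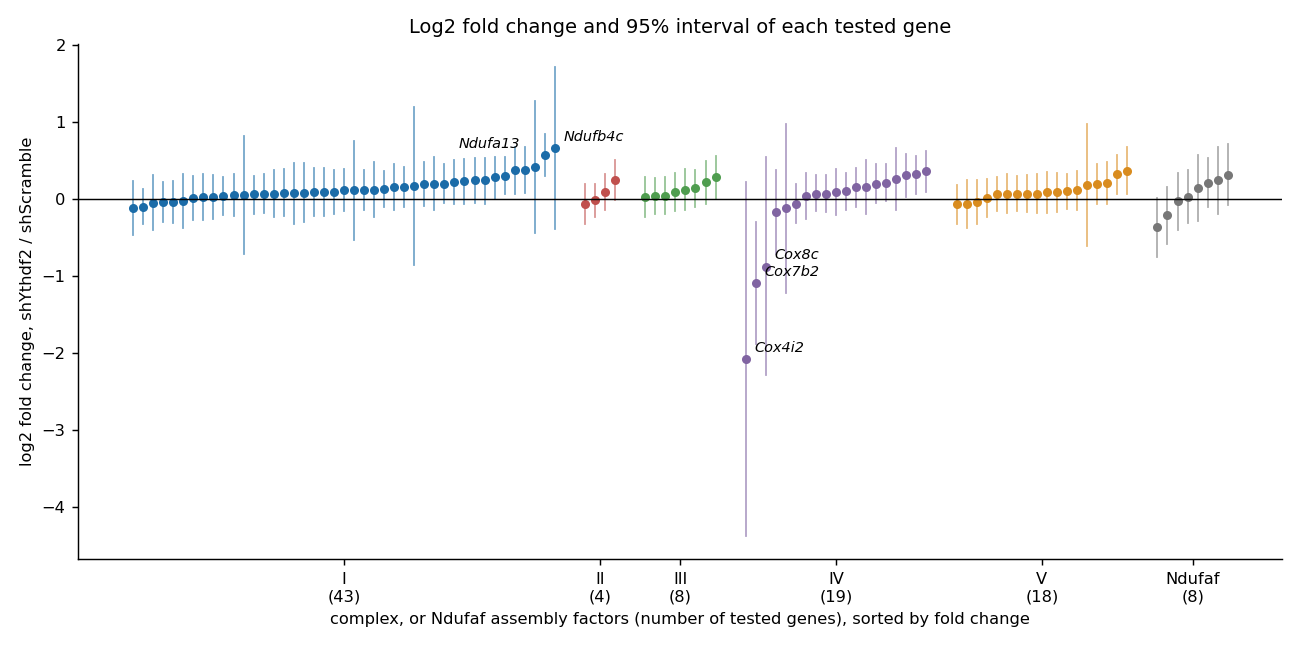
Log2 fold change of shYthdf2 against shScramble (y axis) for the 100 tested respiratory chain genes, sorted within complexes I to V and the Ndufaf assembly factors (x axis), with points at the edgeR estimate and lines for its 95% interval. Most points lie just above 0, Ndufa13 is the only gene past the adjusted threshold, and the lowest points (Cox4i2, Cox7b2, Cox8c) are tissue-specific isoforms of complex IV with few reads.

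Complex I, the NADH dehydrogenase, was represented by 43 tested rows with a median log2 fold change of 0.11, and 37 of the 43 lay above 0. Without shYthdf2 replicate 1 the median was 0.01. Ndufa13 encodes an accessory subunit of the membrane part of the complex and lies on the minus strand of chromosome 8 (mm10), from 69894163 to 69902558. It was counted at 1303, 1285, 2028 and 1974 reads, or 36.1, 40.8, 59.3 and 55.1 CPM. Both shYthdf2 libraries stood well above both shScramble libraries, and the 2 shYthdf2 values lay close together. The level rose from 38.5 ± 3.26 to 57.2 ± 2.94 CPM (SD, n = 2 libraries each), a log2 fold change of 0.57 (SE 0.12, 95% interval 0.30 to 0.85, edgeR adjusted p = 0.037). The call was kept in 14 of 15 other settings with an adjusted p and was lost without shScramble replicate 1, where the log2 fold change was 0.49 (adjusted p = 0.10). Of the 1268 exon bases of Ndufa13, 375 (29.6%) overlap Tssk6 on the opposite strand. The counts do not use strand and leave out reads that lie over several genes. Tssk6 itself was counted at 49, 54, 45 and 71 reads, far below Ndufa13.

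The core subunits of complex I include those that carry the flavin and the iron-sulfur clusters along which electrons travel. The 6 named here, Ndufs1, Ndufs3, Ndufs7, Ndufs8, Ndufv1 and Ndufv2, had log2 fold changes between -0.12 and 0.09, none past the threshold. Ndufv1, which holds the NADH binding site, stood at 158, 151, 171 and 150 CPM, so that the groups overlapped (log2 fold change 0.06, SE 0.11). Ndufs1, the largest subunit, was the only complex I row with both shYthdf2 libraries below both controls, at 143, 137, 132 and 128 CPM. Its log2 fold change was -0.10 (SE 0.10, edgeR adjusted p = 0.63), and the interval from -0.33 to 0.13 leaves room for either sign. Ndufs8 had the lowest estimate of the complex, -0.12 (SE 0.16), with 38.4, 45.6, 43.5 and 33.7 CPM and overlapping groups.

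Accessory subunits of complex I lay higher than these core subunits in several cases, without passing the adjusted threshold. Others lay within the range of the core subunits, such as Ndufb8 and Ndufa9, both at -0.04. Core and accessory subunits were not compared by a test. Ndufb5 stood at 61.1, 58.5, 87.7 and 68.2 CPM (log2 fold change 0.38, SE 0.14, edgeR adjusted p = 0.15) and Ndufa2 at 43.2, 41.9, 61.8 and 48.1 CPM (0.37, SE 0.14, adjusted p = 0.17). In both, shYthdf2 replicate 1 was the highest library by a wide margin and replicate 2 lay between it and the controls. Ndufab1, the acyl carrier protein of the complex, had 2 close shYthdf2 values, at 62.4, 60.9, 77.3 and 74.3 CPM (0.30, SE 0.11, adjusted p = 0.15). Ndufa11, in the membrane part of the complex, stood at 75.9, 70.0, 94.7 and 76.2 CPM (0.23, SE 0.13, adjusted p = 0.36), with replicate 2 of shYthdf2 close to the higher control. Ndufb4 and Ndufb7 were the most abundant complex I genes per length, with means of 117 and 116 RPKM (CPM per kilobase of deposited gene length). Ndufb4 stood at 49.5, 46.4, 62.5 and 53.8 CPM (0.28, SE 0.12, adjusted p = 0.24), and Ndufb7 at 63.1, 56.9, 71.9 and 55.8 CPM (0.09, SE 0.14). The groups of Ndufb4 did not overlap, and those of Ndufb7 did. The highest estimate of the complex, 0.66, belonged to Ndufb4c, a copy of Ndufb4 with 63, 22, 75 and 61 reads (SE 0.47, adjusted p = 0.47). All of its 150-base windows also occur in Ndufb4, so its reads are uncertain. Ndufa11b had no read in any library, which allows a level of up to 0.0832 to 0.0951 CPM, depending on the library.

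Ndufs5 illustrates how copies share the reads of a subunit. Over the coding sequence, the transcripts of Ndufs5 and of the row named Ndufs5-ps differed at 2 of 319 compared bases, T81C and A105G (the Ndufs5 base first, positions counted from 1 at the start codon). A stretch of 30 bases with both differences in capitals, at coding positions 78 to 107, is given for each, from the GENCODE transcripts of this genome build.
Ndufs5: ctaTaagaacgccgctcggtgccacgcAtt
Ndufs5-ps: ctaCaagaacgccgctcggtgccacgcGtt
Most reads of the pair were assigned to the copy. Ndufs5, on chromosome 4 from 123712710 to 123718186, was counted at 182, 171, 240 and 153 reads, and Ndufs5-ps, on chromosome 16 from 42955580 to 42956079, at 1120, 949, 1243 and 1145. The copy took 86.0%, 84.7%, 83.8% and 88.2% of the reads of the pair, with no separation of the groups. Neither row passed the test (log2 fold change 0.11, SE 0.29, for Ndufs5 and 0.16, SE 0.13, for the copy). Ndufa12-ps was counted at 1132, 823, 1046 and 890 reads beside 2390, 2074, 2701 and 2152 for Ndufa12. The other pseudogene rows were lower. Cox5b-ps had 364 to 518 reads beside 4890 to 6212 for Cox5b, Ndufab1-ps had 76 to 137 and Atp5pb-ps had 61 to 93. Atp5l2-ps (2, 6, 6 and 6 reads) and Atp5c1-ps (no reads) were not tested.

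Complex II, succinate dehydrogenase, also works in the tricarboxylic acid cycle and has no subunit from the mitochondrial genome. It showed the smallest median, 0.04, over its 4 genes, and 2 of the 4 lay above 0. The median was -0.02 without shYthdf2 replicate 1. Sdha, the flavoprotein, stood at 293, 295, 296 and 286 CPM and Sdhb, the iron-sulfur subunit, at 94.9, 102, 99.7 and 88.4 CPM. The log2 fold changes were -0.02 (SE 0.10) and -0.07 (SE 0.11), and the groups overlapped in both. The membrane anchors lay higher. Sdhc stood at 92.1, 92.2, 117 and 102 CPM (0.25, SE 0.11, edgeR adjusted p = 0.25) and Sdhd at 105, 104, 117 and 106 CPM (0.09, SE 0.11, adjusted p = 0.69). For both anchors the shScramble libraries differed by about 1 CPM or less, and both shYthdf2 libraries lay above them. The 95% interval of each of the 4 genes lay within 1.5-fold in both directions.

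Complex III passes electrons from ubiquinol to cytochrome c. All 8 of its nuclear genes that the name rule kept had a log2 fold change above 0, with a median of 0.11 and none past the threshold. Without shYthdf2 replicate 1 the median was -0.01. Cyc1, which encodes the cytochrome c1 subunit of the complex, lies outside the name rule and was read with the other electron carriers. It stood at 259, 240, 279 and 221 CPM (log2 fold change 0, SE 0.13), with overlapping groups. Uqcr11, a small accessory subunit, had the highest estimate, with 49.2, 46.5, 62.6 and 53.5 CPM (0.28, SE 0.12, edgeR adjusted p = 0.24). Both shYthdf2 libraries lay above the controls, as they did for Uqcr10 and Uqcrh. Uqcrb, with the highest level per length (190 RPKM), stood at 103, 98.4, 115 and 99.9 CPM and Uqcrh (130 RPKM) at 66.4, 69.0, 75.9 and 72.9 CPM. The larger subunits had the lowest estimates. Uqcrfs1, the Rieske iron-sulfur protein, stood at 92.8, 93.8, 99.3 and 92.2 CPM (0.04, SE 0.11), and Uqcrc1, a core subunit outside the electron path, at 295, 329, 342 and 294 CPM (0.03, SE 0.11). The deposited length of Uqcrc1 adds up copies on several contigs, and with the primary chromosome alone its level was 190 RPKM instead of 95.1.

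Complex IV, cytochrome c oxidase, showed the widest range, from -2.08 to 0.36, because it has isoform genes expressed in particular tissues. Its 19 tested rows had a median of 0.09, 13 lay above 0, and none passed the threshold. Without shYthdf2 replicate 1 the median was -0.01. Cox4i1, which encodes the largest nuclear subunit, was the most abundant at 592 RPKM and stood at 432, 427, 521 and 429 CPM (0.15, SE 0.12, edgeR adjusted p = 0.53). Only shYthdf2 replicate 1 stood out. Cox5a, at 187, 187, 210 and 183 CPM (0.07, SE 0.11), was likewise highest in that library alone. Cox5b, at 141, 155, 182 and 160 CPM (0.20, SE 0.11, adjusted p = 0.34), was higher in both shYthdf2 libraries. Ndufa4 stood at 92.1, 87.9, 108 and 83.7 CPM (0.09, SE 0.13), and its groups overlapped.

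The highest estimates of complex IV belonged to Cox6b1, Cox6a1 and Cox6b2, which encode small accessory subunits, whereas the other tested Cox6 genes, Cox6c and Cox6c2, had log2 fold changes of -0.06 and -0.12. Cox6b1 stood at 54.3, 61.8, 78.2 and 70.7 CPM (log2 fold change 0.36, SE 0.12, 95% interval 0.09 to 0.62, edgeR adjusted p = 0.13). Cox6a1, the second most abundant gene of the complex at 510 RPKM, stood at 231, 258, 320 and 290 CPM (0.32, SE 0.11, adjusted p = 0.14). Cox6b2, known as the testis isoform of Cox6b, stood at 53.2, 65.2, 75.3 and 71.2 CPM (0.31, SE 0.13, adjusted p = 0.20). In all 3 genes both shYthdf2 libraries exceeded both controls, and replicate 2 stayed closer to replicate 1 than it did in Cox4i1 or Cox5a. Per length, Cox6b2 (107 RPKM) stood near its ubiquitous counterpart (141 RPKM). It made up 42.8%, 44.7%, 42.4% and 43.4% of the summed RPKM of both Cox6b genes, with overlapping groups.

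Other tissue-specific isoforms were low, and several had their lowest values in shYthdf2. Cox7b2, an isoform known from testis, lies on chromosome 5 from 71442823 to 71548205 and was counted at 334, 246, 191 and 87 reads, or 9.27, 7.80, 5.58 and 2.43 CPM. Both shYthdf2 libraries lay below both controls and were unequal to each other. Its log2 fold change was -1.09 (SE 0.35, 95% interval -1.88 to -0.30), and it did not pass the adjusted test in edgeR (adjusted p = 0.12), whereas DESeq2 called it (adjusted p = 0.035). Over all 15 other settings it passed in 6, with log2 fold changes from -1.81 to -0.61. Its share of the summed RPKM of Cox7b and Cox7b2 was 14.5%, 11.4%, 8.09% and 3.90%, while Cox7b stood at 101, 112, 118 and 110 CPM. Cox8c, another isoform known from testis, had only 16, 26, 10 and 14 reads (-0.88, SE 0.63), and Cox4i2, the isoform known from lung, had 9, 50, 1 and 14 reads (-2.08, SE 1.03, adjusted p = 0.29). For Cox4i2 both the highest value and 1 of the low values were controls. Without shScramble replicate 1 it was called lower, as it was without shYthdf2 replicate 2.

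**Figure D2:**
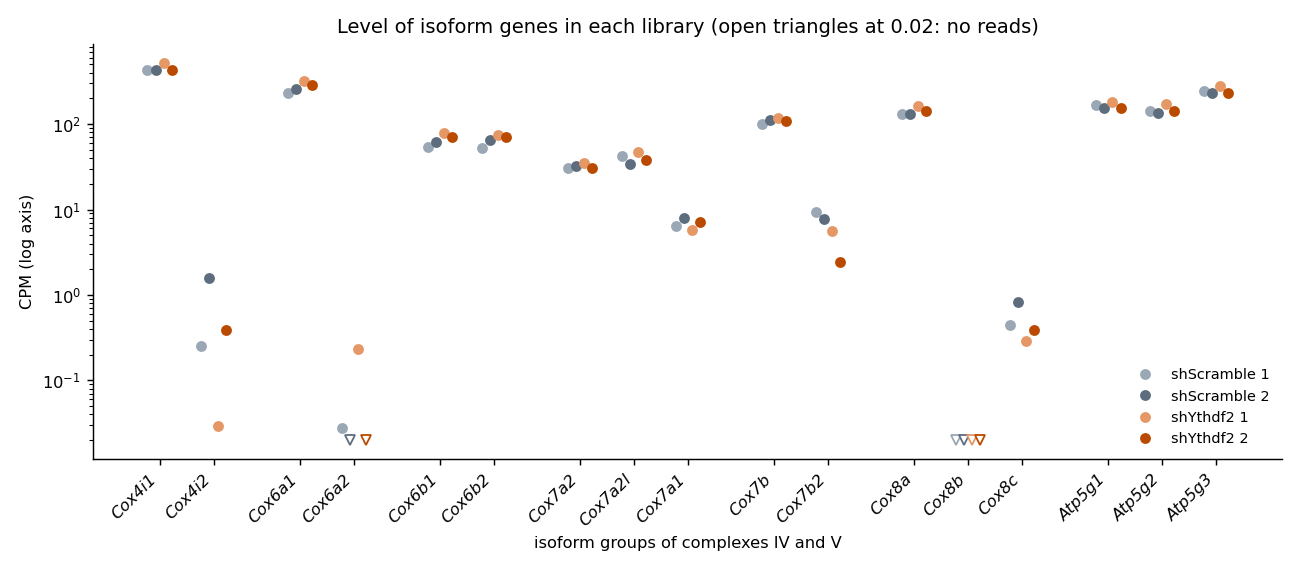
CPM on a log axis (y axis) of the isoform genes of complexes IV and V (x axis) in the 4 libraries, with 1 point per library and open triangles for libraries without a read. Cox6b1 and Cox6b2 lie at the same height, and Cox7b2 stands at 9.27 and 7.80 CPM in shScramble and at 5.58 and 2.43 in shYthdf2. Cox4i2, Cox6a2, Cox8b and Cox8c are the lowest genes, with no value above 1.59 CPM (Cox4i2 in shScramble replicate 2).

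Of the muscle isoforms, only Cox7a1 had enough reads to be tested. Cox7a1, known from heart and skeletal muscle, stood at 6.35, 8.02, 5.73 and 7.06 CPM (-0.17, SE 0.24) and Cox7a2, its ubiquitous counterpart, at 30.9, 32.7, 34.7 and 30.8 CPM (0.04, SE 0.13). Per length the 2 genes were closer, and Cox7a1 made up 45.1%, 49.4%, 39.7% and 47.8% of their summed RPKM. The exons of Cox7a2 overlap other genes over 48.1% (Gm51685, opposite strand) and 14.9% (Tmem30a, same strand) of their bases, so its level is uncertain. Cox7a2l, a factor for supercomplexes of complexes III and IV, stood at 42.6, 33.7, 46.7 and 38.3 CPM (0.16, SE 0.16). Cox6a2 had 1, 0, 8 and 0 reads and Cox8b none, so both muscle isoforms were below what the test admits. Cox8a carried nearly all of the Cox8 signal, with Cox8c at 0.204% to 0.707% of the summed RPKM. Cox8a stood at 130, 133, 163 and 142 CPM (0.21, SE 0.11, edgeR adjusted p = 0.31).

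Complex V, the ATP synthase, had the highest mean level per gene over all rows except pseudogenes, 190 to 216 RPKM over 17 genes in the 4 libraries. The mean of complex IV, 145 to 175 RPKM over 20 genes, includes its tissue-specific isoforms. Without these isoforms and Cox7a2l, the median gene of complex IV stood at 204 RPKM, compared with 149 in complex V. Its 18 tested rows had a median log2 fold change of 0.08, 15 lay above 0, and none passed the threshold. Without shYthdf2 replicate 1 the median was -0.02. The genes of the catalytic head had small estimates with narrow intervals. Atp5b, the catalytic beta subunit, had the highest level of all members, 975 RPKM, with 1800, 1780, 1950 and 1800 CPM (0.07, SE 0.10, 95% interval -0.16 to 0.29). Atp5a1, the alpha subunit, stood at 1130, 1140, 1290 and 1160 CPM (0.10, SE 0.10) and Atp5c1, the gamma subunit of the central stalk, at 202, 213, 227 and 208 CPM (0.07, SE 0.10). In all 3 genes shYthdf2 replicate 1 was the highest library, and replicate 2 stood close to the controls. The deposited length of Atp5a1 also counts several contigs, and on the primary chromosome alone its level was 486 RPKM instead of 243.

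Atp5e and Atp5l had the highest estimates of complex V, while the genes of other small subunits, Atp5k, Atp5mpl and Atp5md, had log2 fold changes of -0.07, -0.04 and 0.09. Atp5e, the epsilon subunit of the central stalk, stood at 39.1, 37.2, 54.3 and 43.7 CPM (log2 fold change 0.36, SE 0.14, edgeR adjusted p = 0.17), and Atp5l, a membrane subunit, at 68.9, 66.8, 89.3 and 80.2 CPM (0.32, SE 0.11, adjusted p = 0.14). Both shYthdf2 libraries were above both controls. Atp5o, in the peripheral stalk (259 RPKM), stood at 197, 202, 218 and 183 CPM (0.01, SE 0.11). Atp5pb, also of the peripheral stalk, stood at 228, 230, 235 and 201 CPM (-0.07, SE 0.11). The groups overlapped in both stalk genes. The c subunit of the rotor ring is encoded by 3 genes for the same mature protein. Atp5g1 stood at 166, 153, 180 and 156 CPM, Atp5g2 at 141, 136, 174 and 144 CPM and Atp5g3 at 246, 232, 276 and 233 CPM, with log2 fold changes of 0.07, 0.20 and 0.09. Per length they shared the signal in nearly fixed parts. Atp5g1 held 29.5% to 31.4%, Atp5g2 held 41.2% to 44.0% and Atp5g3 held 26.5% to 27.4% of their summed RPKM.

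The 8 Ndufaf assembly factors, which help to build complex I without staying in it, were lower in level and moved both ways. Their median was 0.08, 5 of 8 lay above 0, and none passed the threshold. Without shYthdf2 replicate 1 the median was -0.03, and without replicate 2 it was 0.20. Ndufaf5 was highest, at 11.7, 12.8, 16.0 and 14.4 CPM (0.31, SE 0.18, edgeR adjusted p = 0.35), and Ndufaf6 lowest, at 21.9, 20.2, 18.1 and 14.5 CPM (-0.37, SE 0.17, adjusted p = 0.26). In each of these 2 genes the groups did not overlap.

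The upward shift of the members followed 1 library. Of the 100 tested members, 94 were higher in shYthdf2 replicate 1 than in shYthdf2 replicate 2 (50.5% of all genes tested), and 83 had their highest value of the 4 libraries in replicate 1, compared with 2 in replicate 2. The median deviations from the shScramble mean were 0.02 and -0.02 in the controls, 0.19 in shYthdf2 replicate 1 and 0 in replicate 2. The pattern ran through every complex. In replicate 1 the median deviations were 0.23 for complex I, 0.09 for II, 0.17 for III, 0.17 for IV and 0.18 for V, and in replicate 2 they lay between -0.02 and 0.02. All genes of complexes II, III and V were higher in replicate 1 than in replicate 2, as were 40 of 43 in complex I and 16 of 19 in complex IV. The 13 protein-coding genes of the mitochondrial genome summed to 17800, 14500, 20000 and 15300 CPM, and 74 of 80 mitochondrial ribosomal protein genes (92.5%) were also higher in replicate 1. The part of these library differences in the results was not tested.

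**Figure D3:**
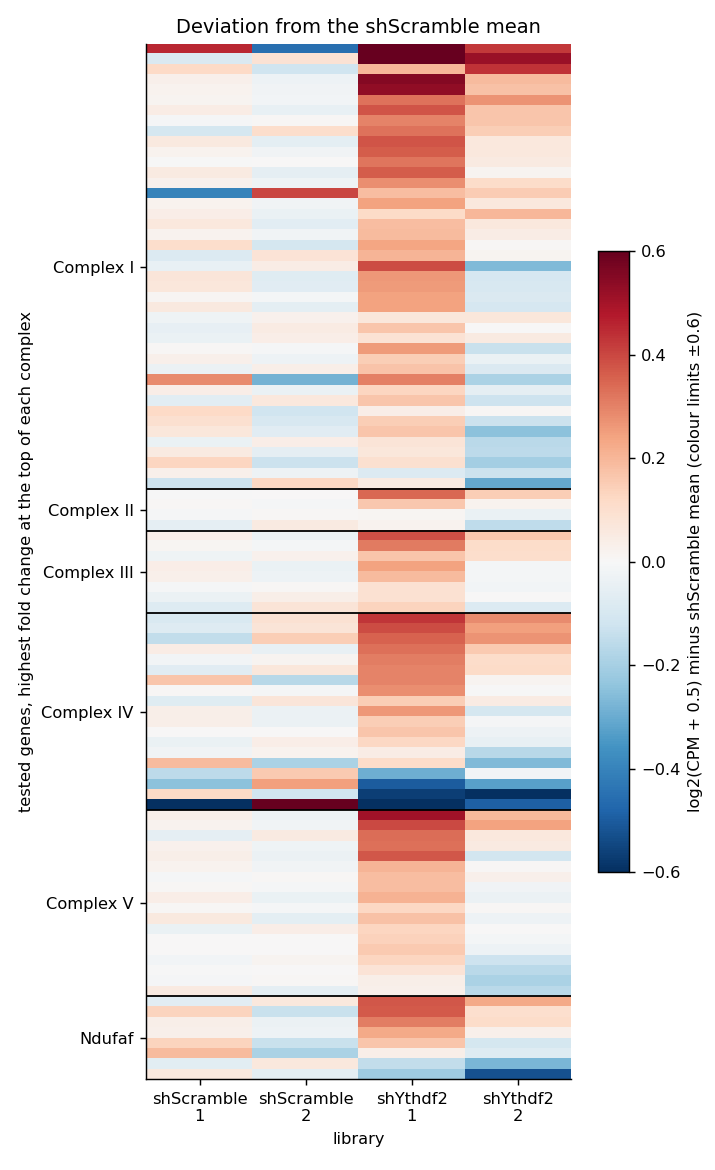
Heat map of the 100 tested respiratory chain genes (y axis, sorted by fold change within each complex) in the 4 libraries (x axis), coloured by log2(CPM + 0.5) minus the shScramble mean, with colours limited at 0.6 above and below. The column of shYthdf2 replicate 1 is red for nearly all genes (median 0.19), whereas the column of replicate 2 holds both colours (median 0).

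Comparing complexes I to V by their summed level gave the same order of libraries. Pseudogene rows were left out of these sums. Complex I summed to 2180, 2120, 2540 and 2150 RPKM over 41 genes, complex II to 343, 350, 377 and 342 over 4 genes, and complex III to 768, 768, 887 and 788 over 8 genes. Complex IV summed to 2900, 2990, 3510 and 3060 RPKM over 20 genes and complex V to 3270, 3230, 3680 and 3240 over 17 genes. In every complex shYthdf2 replicate 1 was the highest library, and only in complexes III and IV was replicate 2 above both controls. The log2 ratio of the group means was 0.13 for complex I, 0.05 for II, 0.12 for III, 0.16 for IV and 0.09 for V. Without shYthdf2 replicate 1 the ratios were 0, -0.02, 0.04, 0.06 and -0.01. The smallest two-sided p of an exact permutation test is 0.333 at this group size, and the sums are given as values without a p. All 98 genes without pseudogene rows held 1.04%, 1.07%, 1.18% and 1.07% of the counted reads. In bulk RNA, fewer cells that express a gene and less RNA per cell cannot be told apart.

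**Figure D4:**
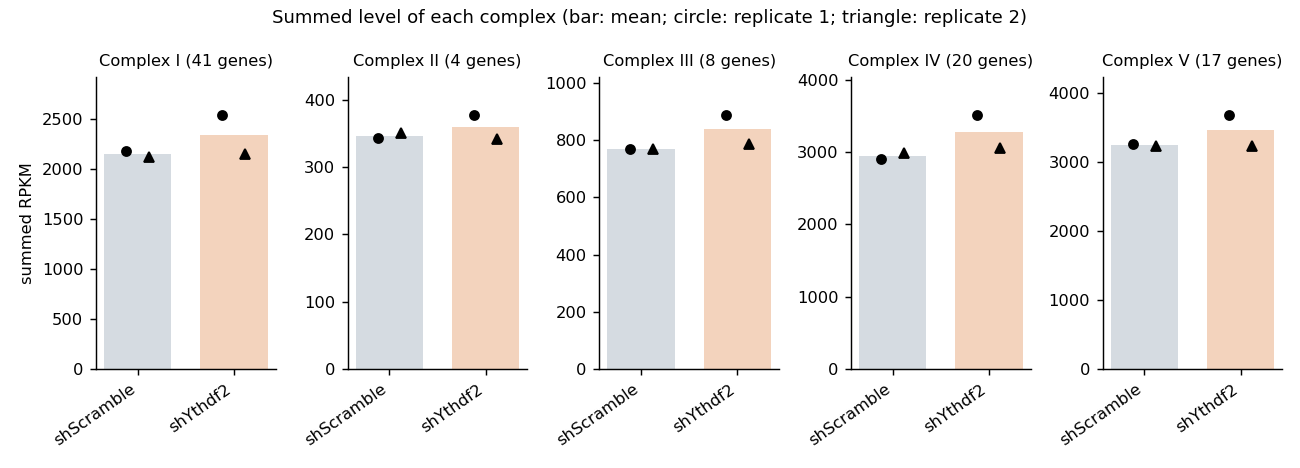
Summed RPKM (y axis) of the genes of complexes I to V in shScramble and shYthdf2 (x axis), with bars at the mean of 2 libraries, circles for replicate 1 and triangles for replicate 2, and a y axis from 0 in each panel. The circle of shYthdf2 is the highest point in every panel, and the triangle of shYthdf2 lies near the controls.

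Per length, levels within a complex were far from equal. In complex I the genes ran from Ndufa11b, without reads, to Ndufb4 at 117 RPKM (median 52.6), in complex II from Sdhc at 77.7 to Sdha at 102 (median 86.6), and in complex III from Uqcrq at 50.6 to Uqcrb at 190 (median 87.0). In complex IV without its tissue-specific isoforms they ran from Cox6c2 at 2.2 to Cox4i1 at 592 (median 204), and in complex V from Atp5d at 59.5 to Atp5b at 975 (median 149).

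The genes share short transcripts. The median gene length of the tested members was 809 bases, compared with 3337 over all genes tested. The fold changes were therefore also set beside those of all genes of like deposited length. The 21 members under 500 bases had a median of 0.12 (all genes of that length -0.02), the 35 from 500 to 1000 bases had 0.11 (0.05), the 31 from 1000 to 2000 bases had 0.07 (0.06), and the 9 from 2000 to 4000 bases had 0.03 (0.02). The 4 longer members had 0.15 (-0.05). They include Ndufa7 and Atp5a1, whose deposited lengths of 4804 and 4864 bases add up copies on several contigs. On the primary chromosome alone these genes have 1201 and 2432 bases. Uqcrc1 (3312 bases, 1656 on the primary chromosome) and Ndufs3 (1898 and 949) were also placed by such lengths. GGAC, the core of the sequence at which m6A is deposited, occurred at a median of 3.86 per kilobase in the transcripts of 88 tested members and at 4.19 in 14063 genes tested. Because the transcripts are short (median 870 compared with 3108 bases), they held a median of 4 GGAC sites compared with 13. The median GC content was 50.4% in both. Whether a site carries m6A was not measured in these libraries.

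**Figure D5:**
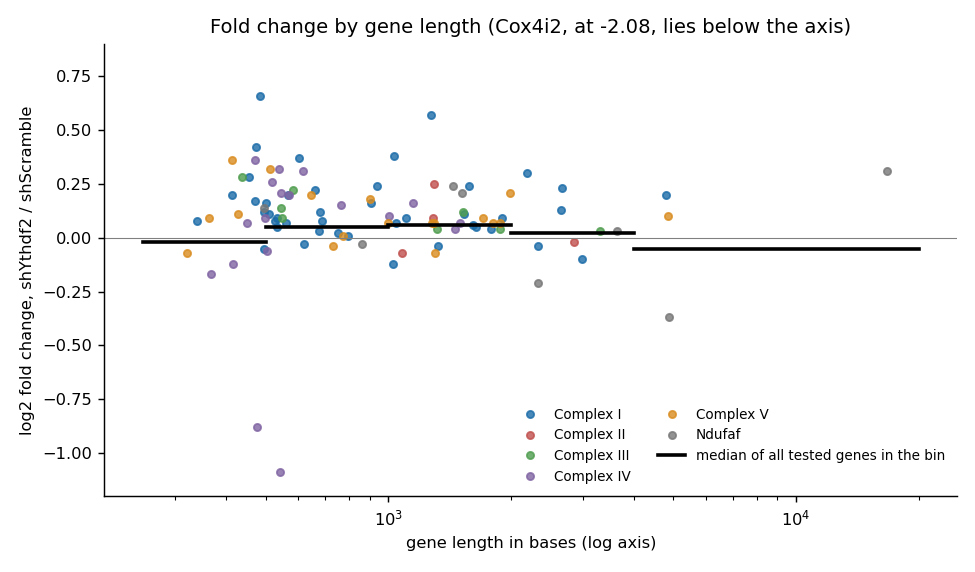
Log2 fold change of shYthdf2 against shScramble (y axis) by gene length in bases on a log axis (x axis) for the tested respiratory chain genes, 1 point per gene coloured by complex, with black lines at the median of all genes tested in each length range. Points under 1000 bases lie mostly above the black lines, with group medians of 0.12 and 0.11 for the members compared with -0.02 and 0.05 for all genes.

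Genes that work beside the respiratory chain were read from the same fit. Of 26 tested genes for other electron carriers and entry points, including ubiquinone synthesis and the ADP/ATP carriers, 1 rose and 1 fell (2.43% and 1.49% of all genes tested), and the median was -0.05 (-0.09 without shYthdf2 replicate 1). Slc25a5, the main ADP/ATP carrier of dividing cells, stood at 496, 498, 706 and 639 CPM (log2 fold change 0.44, SE 0.10, edgeR adjusted p = 0.048). Both shYthdf2 libraries lay above the closely matched controls, but the call was lost without shScramble replicate 1 (adjusted p = 0.16, edgeR) and without shScramble replicate 2 (0.19). Cyct, the testis cytochrome c, stood at 12.6, 13.9, 7.39 and 4.75 CPM (-1.13, SE 0.24, adjusted p = 0.038), with both shYthdf2 libraries below the controls, and passed with any 1 library left out. Cycs, the cytochrome c of other tissues, stood at 133, 130, 128 and 107 CPM (-0.16, SE 0.12, adjusted p = 0.48), so that only the testis gene passed the test. The difference between these 2 genes was not tested.

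Of 45 tested assembly factors with other names, 1 rose and none fell (2.43% and 1.49% of all genes tested). Their median was 0.13, with 31 of 45 above 0 (50.2% of all genes tested), and it was 0.05 without shYthdf2 replicate 1 and 0.20 without shYthdf2 replicate 2. The gene that rose was Coa7, a factor for complex IV assembly, at 40.1, 40.2, 60.7 and 55.1 CPM (log2 fold change 0.53, SE 0.12, edgeR adjusted p = 0.040). Its call was lost without shScramble replicate 1 (adjusted p = 0.067, edgeR), shScramble replicate 2 (0.088) or shYthdf2 replicate 1 (0.062). Of 19 tricarboxylic acid cycle genes 1 rose and none fell (2.43% and 1.49% of all genes tested). Their median was 0.04, with 0.03 without shYthdf2 replicate 1 and -0.01 without shScramble replicate 2. Mdh2, mitochondrial malate dehydrogenase, stood at 186, 188, 352 and 296 CPM (0.79, SE 0.11, adjusted p = 0.0088), well clear of the controls in both shYthdf2 libraries, and passed with any 1 library left out. None of the 21 regulators of mitochondrial biogenesis passed the adjusted test (edgeR). With an unadjusted p under 0.05, 1 regulator was higher and 3 were lower, beside 11.0% and 9.80% of all genes tested. Their median was -0.04 (-0.09 without shYthdf2 replicate 1, 0.02 without shScramble replicate 1 and -0.11 without shScramble replicate 2). Ppargc1b, a coactivator of this programme, had 565, 537, 380 and 342 reads (-0.66, SE 0.18, adjusted p = 0.076), and Nrf1 had a log2 fold change of 0.12 (SE 0.11) and Tfam one of -0.07 (SE 0.11). Gabpa, which encodes the DNA-binding subunit of GABP, stood at -0.28 (SE 0.10, adjusted p = 0.17), and its exons overlap Atp5j on the opposite strand.

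For the subunits encoded by the mitochondrial genome the sign of the median changed without shYthdf2 replicate 1. Their median log2 fold change over 13 genes was 0.17 with all libraries, -0.06 without shYthdf2 replicate 1 and 0.35 without shYthdf2 replicate 2. It was 0.34 and 0.10 without shScramble replicates 1 and 2. The controls also differed, by a median of -0.28 in log2(CPM + 0.5) for shScramble replicate 2 minus replicate 1. Between libraries of the same number, which are not known to be paired, shYthdf2 minus shScramble had medians of 0.15 and 0.18. With all libraries 9 lay above 0, and none passed the adjusted test (edgeR). Before adjustment, 2 had a p under 0.05, both as higher (11.0% of all genes tested). COX2, the subunit of complex IV that takes electrons from cytochrome c, had 1535, 1514, 2278 and 1992 reads (0.43, SE 0.13, adjusted p = 0.10), and ATP8 had 509, 407, 451 and 1800 reads (1.23, SE 0.45, adjusted p = 0.16), the latter high in shYthdf2 replicate 2 alone. COX1, the catalytic core subunit of complex IV, had 173937 to 228826 reads per library and a log2 fold change of 0.17 (SE 0.10). The counts of these genes were very unequal, with only 245, 252, 243 and 302 reads for COX3 and 31, 7, 59 and 29 for ND3. Multi-mapped reads and reads over several genes were left out, so low rows, with COX2 and ATP8, may hold only a part of a gene's reads. The size of that part was not tested. Of 80 mitochondrial ribosomal protein genes, which serve the translation of these subunits, 4 rose and none fell (2.43% and 1.49% of all genes tested). Their median was 0.16, with 69 of 80 above 0 (50.2% of all genes tested), and 0.09 without shYthdf2 replicate 1. Mrpl3 had a log2 fold change of 0.67 (adjusted p = 0.017), Mrps34 of 0.62 (0.026), Mrpl17 of 0.52 (0.049) and Mrpl40 of 0.49 (0.048). In each of these 4 genes both shYthdf2 libraries were above both controls. Without shScramble replicate 2 the calls of Mrpl17 (adjusted p = 0.20, edgeR) and Mrpl40 (0.23) were lost.

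Sequence overlap limits some members. Exons of 19 of the 105 rows overlap another gene, and in 8 rows the overlap covers over 10% of the exon bases. Besides Ndufa13, Cox7a2 and Atp5j these are Ndufb11, with 29.0% of its bases in Rbm10, Uqcr10, Uqcrc2, Ndufa2 and Cox6a2. Of 97 rows with a transcript, 19 share at least 1 window of 150 bases with another gene and 78 share none, and only Ndufb4c shares over 50% of its windows.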

How the data were processed

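The authors deposited raw read counts per gene for the 4 libraries in 1 table, with no normalization and no pooling. Per the file headers, featureCounts 2.0.3 counted reads over RefSeq exons of mm10 without the strand option, although the labels describe a stranded dUTP kit. The submitters' processing notes also name fastp 0.19.4, HISAT2 2.2.1 and DESeq2 1.40.2. Both reads of a pair were counted (61.5% to 63.9% of the counts from 1 to 20 were even), and multi-mapped reads were left out. Gene length is the deposited length of all exons of a row. There were 0 other columns of per-sample values.

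Counts were tested with edgeR 4.0.16 (R 4.3.3): TMM scaling, filterByExpr (minimum count 10, minimum total 15), the two-sided quasi-likelihood F test of shYthdf2 against shScramble, no covariate, and Benjamini-Hochberg adjustment over 18341 genes, with a threshold of 0.05. Each SE was derived from the F statistic. Biological variation between libraries came to 15.8%. In data simulated for this comparison over 17855 genes, 50.7%, 88.1% and 97.0% of genes changed 1.5-, 2- and 4-fold were recovered. A library without a read of a gene is bounded by 3 reads, 0.0832 to 0.0951 CPM, for counting error only. RPKM used TMM-scaled totals and the deposited length. DESeq2 1.42.0 and limma-voom (limma 3.58.1) were alternatives, with other scalings, filters, halved counts, a length correction, the replicate block and each library left out.

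The members and gene lists were chosen with earlier results of these data known. Coa1, 1 of 48 listed assembly factors, was not found by name in the table. Named genes are members past the threshold, the highest and lowest fold change and the 2 highest mean RPKM in each complex, complex II, core subunits, isoform groups, and list genes past the threshold. Other genes with values, such as Ndufa2, Ndufa11, Ndufb5, Ndufab1, Atp5l, Ppargc1b and COX2, were picked after their values were seen. Exon overlaps used the deposited exons. Protein sequences were not analysed here, and 1 core subunit gene that the rule names is not reported here.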

Additional observations from a re-analysis of the deposited data

How the results depend on the processing

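The rise of Ndufa13 and the small positive median of the members kept their sign under every scaling, filter and tool tried, and no called result changed sign. The number of all genes called moved most: 1095 higher and 843 lower without the filter on low counts, 800 and 602 with DESeq2, and 445 and 273 as reported. With the replicate number as a block (replicate block) 1851 genes were higher and 1674 lower, and 1728 and 1468 with the block and a length correction. Leaving out 1 library in turn gave 534 to 1175 higher and 300 to 1113 lower.

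Among the members, 2 were called higher (Ndufa13, Ndufb5) and 2 lower (Cox4i2, Cox7b2) without the filter (6.34% of all genes called). With DESeq2 1 was called higher (Ndufa13) and 1 lower (Cox7b2), beside 8.9% of all genes. With the study's criteria in DESeq2 0 were higher and 1 lower (2.88% of all genes called). The block called 9 higher and 2 lower (19.2% of all genes called), and 7 and 2 with the length correction (17.4%). The deviations of the libraries numbered 1 correlated at r = 0.29 over all genes and 0.56 over the members, but the labels do not say that a replicate number marks a shared batch and there are only 2 pairs, so the libraries were not treated as paired. Leaving out 1 library gave 0 (without shScramble replicate 1) to 8 (without shYthdf2 replicate 2) members higher and 1 lower in each case (Cox4i2 or Cox7b2), compared with 1 and 0 as reported. The cause of these moves was not tested. In fits with a library left out, the lone library of a group is assumed to vary like the other group.

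With a library left out in turn, the median log2 fold change ran from 0 to 0.19 for all members, from 0.01 to 0.24 for complex I, from -0.02 to 0.09 for II, from -0.01 to 0.18 for III, from -0.01 to 0.17 for IV, from -0.02 to 0.18 for V and from -0.03 to 0.20 for the assembly factors. The log2 ratio of the summed levels ran from 0 to 0.24 for complex I, from -0.02 to 0.12 for II, from 0.04 to 0.21 for III, from 0.06 to 0.25 for IV and from -0.01 to 0.18 for V. The count of members above 0 was 48 without shYthdf2 replicate 1, 93 when replicate 2 of that group was left out, and 70 with the length correction, which was chosen for this count after seeing the data. Of the repeats of single members and list medians, 742 kept direction and call, 21 gained a call, 1 lost it and 25 changed in size or sign without a call. These counts leave out the single genes of the lists. Of those, Coa7, Slc25a5, Mrpl17 and Mrpl40 lost their calls in some fits with a library left out, as given above. With 2 libraries per group, changes of 1.5-fold were recovered about as often as missed in simulated data, so shifts of this size or smaller in single genes can be missed at this depth.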
